A study of Bos taurus with 6 samples.

Results

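Ion channel genes were compared between calves of 1 month and bulls of 24 months of the Chinese Red Steppe breed, in the longissimus dorsi, a large muscle along the spine. The genes were taken by symbol and not by any measured value: every probe set of the bovine Affymetrix array that carries a single symbol beginning with SCN, CACN, KCN, CLCN, CLIC or TRPC, TRPM or TRPV (with a digit after SCN, CLIC and TRP). The rule found 99 probe sets for 59 of the 9155 genes named on the array, and each gene is described by its brightest probe set by mean signal. Each age is represented by 9 male bulls on a standard diet, whose total RNA was mixed in pools of 3, so that n = 3 pools per age with 1 array per pool. The arrays are called 1-month replicates 1, 2 and 3 and 24-month replicates 2, 3 and 4, after their labels. The spread between arrays is that between pools, single bulls were not measured, and age goes together with everything else that differed between calves and older bulls. The comparison asks which channel genes differ in level between the ages.

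A muscle fibre is an excitable cell. Sodium channels carry the action potential along its surface membrane and into the transverse tubules, where a voltage-sensing calcium channel of pore, beta, alpha-2-delta and gamma subunits couples it to calcium release from the sarcoplasmic reticulum. Potassium and chloride channels bring the membrane back to rest and keep it there, and other channels serve the organelles, vessels and nerves of the tissue.

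The rise of SCN4B, a sodium channel beta subunit, was by far the largest difference among the channels: its signal was 12.9-fold higher at 24 months. CACNB1 and CACNG6, auxiliary subunits of voltage-gated calcium channels, were 1.74-fold and 1.70-fold higher on that scale (n = 3 pools per age throughout). The other tested probe sets of CACNB1 were not called, and in another deposited table of the same arrays neither gene was called. CACNA2D1, another auxiliary calcium channel subunit, and KCNMB1, a beta subunit of the large-conductance calcium-activated potassium channel, were also called higher. Both had no present call at 1 month and were tested through their 24-month calls alone. No channel gene was called lower by limma, although KCNMA1 and KCNMB4, the pore and another beta subunit of the same potassium channel, had lower signals on all 3 arrays of 24 months than on any of 1 month. Of the 59 genes 30 had no present call on any array. All voltage-gated and tandem-pore potassium channels of the set were among these 30.

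Changes are given on the scale of log2(signal + 16), as 24 months minus 1 month, with the standard error of the limma fit after each ±. Precision is limited by there being 3 arrays per age. A gene was tested where 3 or more of the 6 arrays called its probe set present, and a change was called at a Benjamini-Hochberg adjusted p under 0.05 over all 13204 tested probe sets of the array.

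Before the results, the arrays themselves differed. The 24-month arrays were alike, with a mean correlation of 0.987 to 0.989 with the others of their age over the tested probe sets, and the 1-month arrays less so (0.915 to 0.931). For the actin control probe sets, 3' signal exceeded 5' signal by a log2 ratio that is used as a sign of RNA quality and was 0.46 to 0.85 at 1 month and 0.22 to 0.26 at 24 months (two-sided exact permutation test, p = 0.1, the smallest that 3 against 3 arrays allow). 1-month replicate 1 stood apart in several channels and in markers of other cells. Its summed signal of 4 fibroblast markers was 14458, against 5070 and 6662 on the other 1-month arrays and 4407 to 5594 at 24 months. Its summed signal of 3 fat cell markers was 2268, against 169 and 530 on the other 1-month arrays and 626 to 878 at 24 months. Of the 3 markers FABP4 alone read 2021 on 1-month replicate 1. Leptin had no present call, and ADIPOQ had none at 1 month. Red cell markers also differed between the ages. Their sum, nearly all from HBB on the higher arrays, was 2455, 2472 and 185 on 1-month replicates 1, 2 and 3. At 24 months it was 69.2 to 74.6. HBB was called lower (-4.38, limma adjusted p = 0.0291). It had no present call at 24 months and was tested through its 1-month calls alone, so the filter itself favoured a fall in it. All 6 markers of the muscle fibre on the array (of 9 listed) were present on every array, with sums of 46502 to 48425 at 1 month and 60815 to 62202 at 24 months. These markers did not move together. MYH7 (1.13), MB (0.90) and TNNT3 (0.48) were called higher by limma, while ACTA1 (-0.01), CKM (0.17) and TNNC2 (0.13) were not called. In bulk tissue, fewer cells of a type and less RNA per cell cannot be told apart.

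Detection came first, because most of the set lay below it. The brightest probe set was called present on all 6 arrays for 12 genes, on 3 to 5 arrays for 8, on 1 or 2 for 9 and on none for 30. Thus 20 of 59 channel genes (33.9%) were tested, against 68.0% of all named genes, and 50.8% had no present call at all, against 22.8% of all named genes. With every probe set of a gene considered, 28 genes were without a present call. Present calls on all 3 arrays of an age were reached by 14 genes at 1 month and 17 at 24 months. Over the whole array, 48.9% to 52.5% of probe sets were called present on the 1-month arrays. On the 24-month arrays it was 54.8% to 56.4% (two-sided exact permutation p = 0.1). Of the 38 probe sets whose names carry the letter A, 3 were tested, against 26 of the 61 with the letter S. For 14 genes an A probe set was the only kind on the array, and over the whole array 41.6% of A and 63.6% of S probe sets were tested.

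**Figure D1:**
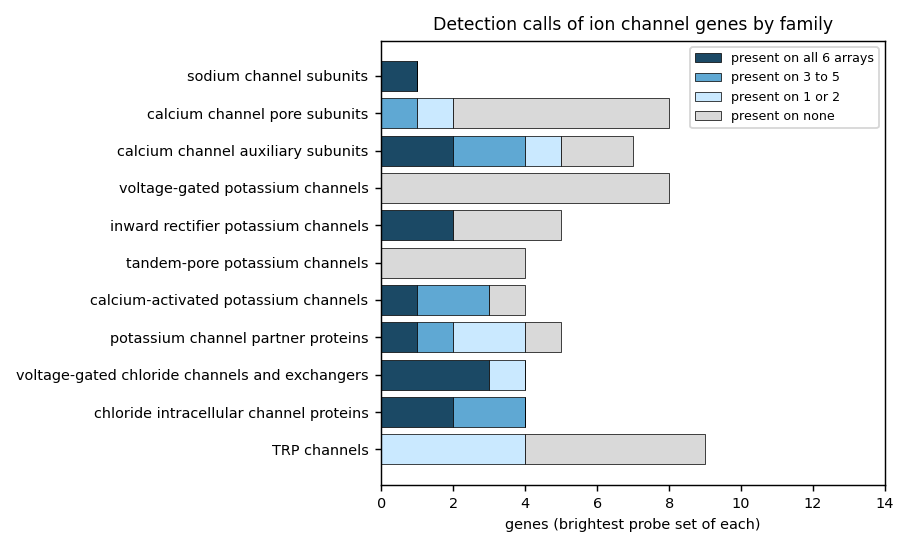
Bars show the number of channel genes in each family, on the horizontal axis, divided by the number of arrays on which the brightest probe set of the gene was called present. The grey parts, for no present call, fill the whole bar of the 8 voltage-gated and the 4 tandem-pore potassium channel genes, while 3 of the 4 voltage-gated chloride genes were present on all 6 arrays.

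Among the 20 tested channel genes 5 were called higher at 24 months and 0 were called lower. Of the 5, CACNA2D1 and KCNMB1 passed the filter only through the age at which they were high, so that the filter itself favoured a rise in them. Over the brightest probe sets of all 6222 tested genes 11.5% were called higher and 5.88% lower, and over all tested probe sets 19.0% were called in either direction. The median change was 0.24 over the 20 channel genes and 0.03 over all tested genes. At an unadjusted p under 0.05 there were 9 of the 20 channel genes, against 34.2% of all tested genes. The arrays of both ages did not overlap for 10 of the 20 genes, 7 of them higher and 3 lower at 24 months, against 42.1% of all tested genes. Of the 12 genes present on all 6 arrays 3 were called higher and 0 lower, against 11.4% higher and 6.15% lower of the 4979 named genes present on all 6. Besides the brightest probe sets, 9 further probe sets of channel genes were tested, and 0 of these were called by limma.

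**Figure D2:**
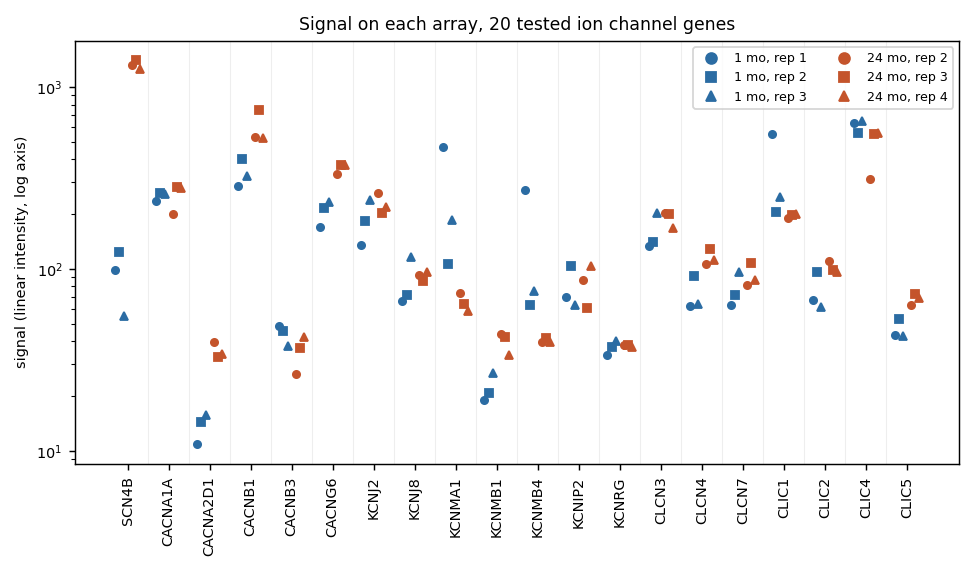
Points show the signal of each of the 6 arrays (linear intensity on a log axis) for the brightest probe set of the 20 tested channel genes. The 1-month arrays are blue and the 24-month arrays red. Colour and marker shape together mark the array, and a shape shared by both ages gives no pairing. The SCN4B signals lie between 54.7 and 123 at 1 month and between 1254 and 1407 at 24 months, and 1-month replicate 1 stands above the other arrays for KCNMA1, KCNMB4 and CLIC1.

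SCN4B encodes the beta-4 subunit of voltage-gated sodium channels, which binds the pore-forming subunit and modifies its gating. It was the sodium channel gene of the set, since SCN4A, which encodes the pore of the adult muscle channel, was not analysed here. Its signals were 98.0, 123 and 54.7 on 1-month replicates 1, 2 and 3, and 1312, 1407 and 1254 on 24-month replicates 2, 3 and 4. It was called present on all 6 arrays, with detection p-values of 0.00122 to 0.0107 on those of 1 month. The lowest 24-month array was thus far above the highest 1-month array. The mean rose from 6.70 ± 0.50 (SD, n = 3) to 10.39 ± 0.08 (SD, n = 3) on the log2 scale, a change of 3.69 ± 0.25 (95% interval 3.10 to 4.27, limma adjusted p = 0.00196). By size of rise it stood at rank 2 of the 6222 tested genes. SCN4B was called in all 19 alternatives, with changes from 3.03 in the second deposited table without normalization to 4.47 with the actin ratio as a covariate. Its signals in that second table were 80.6, 107 and 55.9 in the calves and 877, 703 and 702 in the older bulls. SCN4B has a single probe set, so the alternatives that choose or average probe sets could not alter its change. Those that changed the filter left it at 3.69.

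The 3 calcium channel genes that rose all encode auxiliary subunits. CACNB1 encodes the beta-1 subunit, which in skeletal muscle brings the voltage sensor to the triad and is needed for its coupling to calcium release. Its signals were 284, 401 and 322 at 1 month and 529, 743 and 524 at 24 months, without overlap. The change was 0.80 ± 0.19 (limma adjusted p = 0.0330). The other CACNB1 probe sets were not called. One, present on all 6 arrays, read 154, 118 and 121 at 1 month and 134, 112 and 129 at 24 months, a change of -0.05 ± 0.15 (limma adjusted p = 0.823), and the third gave 0.24 ± 0.17 (limma adjusted p = 0.365). With the mean of the CACNB1 probe sets in place of the brightest the change was 0.33 and was not called (limma adjusted p = 0.0969). After quantile normalization of the arrays the brightest CACNB1 probe set gave 0.69 (limma adjusted p = 0.0750).

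CACNA2D1 encodes the alpha-2-delta-1 subunit, which is largely extracellular and belongs to the muscle channel. Its probe set had no present call at 1 month, where the signals were 10.8, 14.4 and 15.8 and the detection p-values 0.171 to 0.601, and it was called present on all 3 arrays of 24 months, with signals of 39.8, 32.8 and 34.0. With its 1-month signal taken as an upper limit, CACNA2D1 was at least 1.74-fold higher at 24 months on the log2(signal + 16) scale, which is the fitted value itself (0.80 ± 0.13, limma adjusted p = 0.0104). Its own 1-month signals were above the lowest ones called present there, so no other floor was used. The bound covers neither the error of the fit nor the setting, and with an offset of 50 the CACNA2D1 difference was 0.43. The second CACNA2D1 probe set had no present call on any array.

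CACNG6 encodes a gamma subunit of the family to which the gamma subunit of the muscle channel belongs. It read 169, 217 and 233 at 1 month and 333, 374 and 372 at 24 months, again without overlap, and rose by 0.77 ± 0.15 (limma adjusted p = 0.0184). In the second deposited table the difference was 0.24 after quantile normalization (limma adjusted p = 0.526). CACNB3, a beta subunit best known from nerve and smooth muscle, read 48.7, 45.7 and 37.5 at 1 month and 26.3, 36.8 and 42.0 at 24 months. These ranges overlapped, and its difference of -0.24 ± 0.16 did not pass (limma adjusted p = 0.325).

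Among the genes of the calcium channel pores CACNA1A, the P/Q-type channel of nerve terminals, was tested, through present calls on 3 arrays of 1 month and 1 of 24 months. Its signals of 237 to 261 at 1 month lay within those of 200 to 280 at 24 months, and the difference was -0.01 ± 0.16 (95% interval -0.39 to 0.37, limma adjusted p = 0.983). The 1-month detection p-values of this CACNA1A probe set were 0.0303 to 0.0461. The other CACNA1A probe sets, of 8 in all, had no present call on any array. CACNA1S, the voltage sensor and pore of the skeletal muscle channel, is covered by a single A probe set. It had no present call and 1 marginal call, with signals of 25.4, 28.0 and 26.1 at 1 month and 31.4, 58.3 and 46.5 at 24 months. Detection p-values of CACNA1S in the calves were 0.568, 0.568 and 0.829. Thus the pore gene of the channel was not detected by its probe set while its subunit gene CACNB1 was, and the array gives no value for the change of CACNA1S. CACNA1H, a T-type channel of developing muscle, had no present call either, with signals of 38.0 to 55.9 on its brightest probe set.

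**Figure D3:**
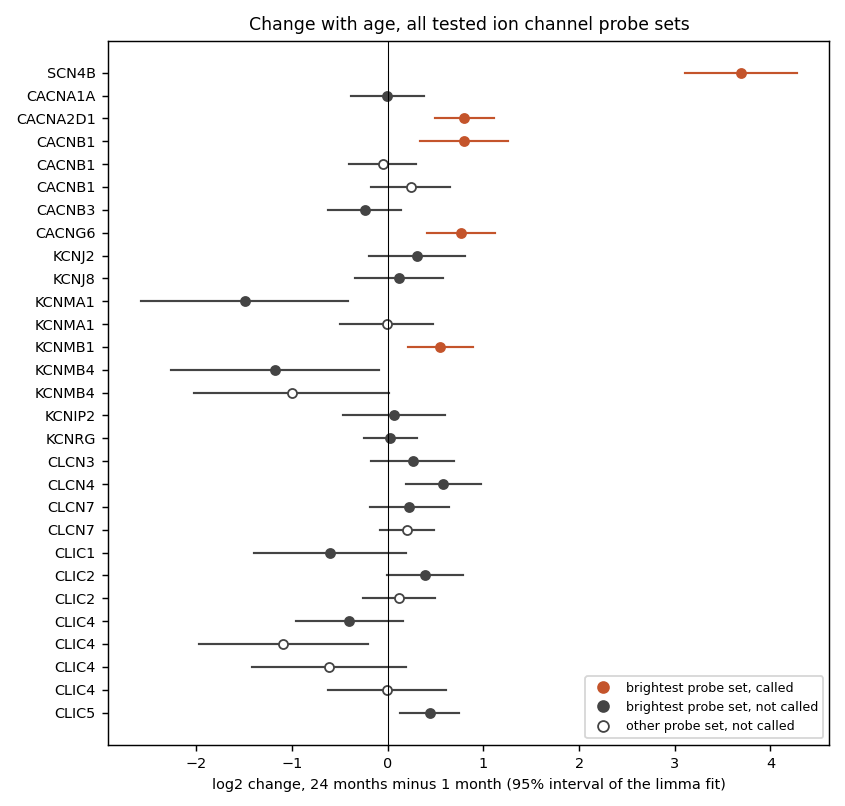
Points show the log2 change from 1 to 24 months and lines its 95% interval for each of the 29 tested probe sets, filled for the brightest of a gene and open for its others, and red where called. All called values lie to the right of 0, and the other probe sets of CACNB1 and KCNMA1 lie nearer to 0 than their brightest.

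The large-conductance calcium-activated potassium channel opens on depolarisation and on calcium, and its beta subunits set its calcium sensitivity. Its pore and beta subunit genes on the array were 3. KCNMB1, the beta-1 subunit known from smooth muscle, had no present call in the calves (signals of 19.1, 20.7 and 26.9) and was called present on all 3 arrays of 24 months (43.7, 42.3 and 33.7). Taken in the same way, KCNMB1 was at least 1.46-fold higher on this scale, again the fitted value (0.55 ± 0.14, limma adjusted p = 0.0396). With an offset of 50 the difference was 0.32 and did not pass (limma adjusted p = 0.0669). In the second deposited table KCNMB1 read 12.7, 7.35 and 14.4 in the calves and 18.8, 14.9 and 13.0 in the older bulls, with overlap, and differed by 0.27 after quantile normalization (limma adjusted p = 0.376). The summed signal of 5 smooth muscle and pericyte markers, all present on every array, overlapped between the ages, at 1200 to 3177 at 1 month and 1315 to 1724 at 24 months. Its members did not move together: RGS5, a pericyte marker, was called lower (-0.93, limma adjusted p = 0.0423), while CNN1 gave 0.31 without overlap (limma adjusted p = 0.169). The part of these cells in the KCNMB1 rise was not tested.

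KCNMA1, the pore subunit, read 470, 107 and 186 at 1 month and 74.0, 63.8 and 58.5 at 24 months. All 1-month arrays lay above all 24-month arrays, and replicate 1 stood far above the other 1-month arrays. The difference of -1.50 ± 0.46 did not pass (95% interval -2.58 to -0.42, limma adjusted p = 0.0624). Without 1-month replicate 1 the KCNMA1 difference was smaller, -0.95, and passed (limma adjusted p = 0.0366). It passed as well without 1-month replicate 2, at -1.95 (limma adjusted p = 0.0261). A second KCNMA1 probe set, also present on all 6 arrays, read 80.5, 43.9 and 65.0 at 1 month and 52.6, 72.7 and 59.3 at 24 months with overlapping ages (-0.01 ± 0.20, limma adjusted p = 0.976).

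KCNMB4 encodes the beta-4 subunit, best known from neurons. Its signals were 270, 63.1 and 75.1 at 1 month and 39.6, 41.5 and 39.6 at 24 months, without overlap. The difference was -1.18 ± 0.46 (limma adjusted p = 0.115), and the second KCNMB4 probe set gave -1.01 ± 0.43 (limma adjusted p = 0.144). Without 1-month replicate 1 the KCNMB4 difference was -0.59 and passed (limma adjusted p = 0.0275). With the actin ratio as a covariate KCNMA1 gave -0.30 (limma adjusted p = 0.850) and KCNMB4 turned to 0.44 (limma adjusted p = 0.726). The actin ratio did not overlap between the ages, so this fit can hardly separate it from age.

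1-month replicate 1 was 3.22 times the mean of the other 1-month arrays in KCNMA1, 3.91 times in KCNMB4 and 2.44 times in CLIC1. The same ratio was 2.46 for the sum of the fibroblast markers, 6.49 for that of the fat cell markers, 1.54 for 4 leukocyte markers, 1.01 for the muscle fibre markers and 0.49 for the smooth muscle and pericyte markers. On 1-month replicate 1 the fat cell sum came mainly from FABP4, which read 2021. The fibroblast markers differed among themselves. COL1A1, a fibroblast collagen, read 4604 on 1-month replicate 1 and 498 and 463 on replicates 2 and 3, and DCN 6892 against 2494 and 3368. COL3A1 read 2699 against 1914 and 2631, and PDGFRA 262 against 164 and 200. A dimmer probe set of KCNK1, a tandem-pore potassium channel, read 197 on 1-month replicate 1, its only present call, and 12.9 to 22.5 on the other 5. Beyond 2 times both other 1-month arrays stood 3 of the 20 channel genes, against 4.56% of all tested genes. The part of other cells in these values was not tested.

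**Figure D4:**
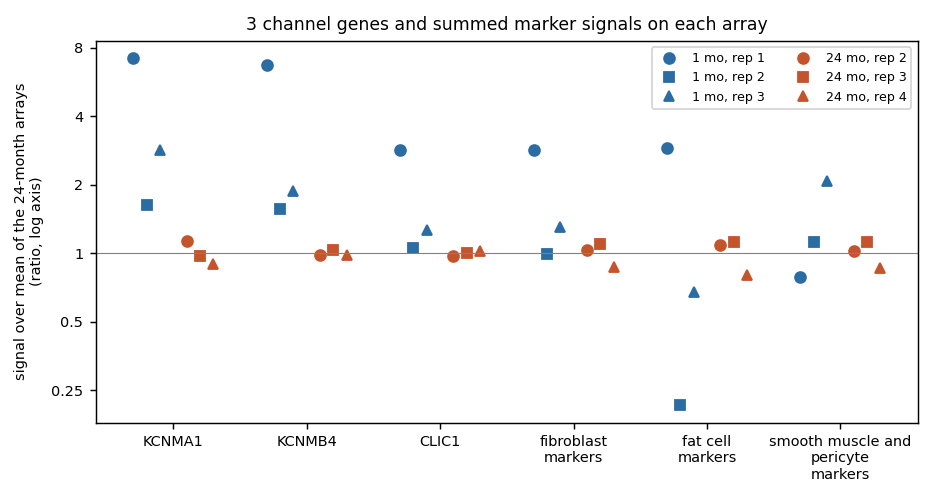
Points show, on a log axis, the signal of 3 channel genes and the summed signal of 3 marker lists on each array, divided by the mean of the 24-month arrays. 1-month replicate 1 is the highest array for the 3 genes and for the fibroblast and fat cell sums, and the lowest for the smooth muscle and pericyte sum.

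Of the other potassium channel genes 4 were tested and 0 were called by limma, with 0 at an unadjusted p under 0.05. KCNJ2 encodes an inward rectifier that holds the resting potential of muscle fibres. It read 135, 183 and 238 at 1 month and 262, 203 and 220 at 24 months, a difference of 0.31 ± 0.21 with overlapping ages (95% interval -0.20 to 0.81, limma adjusted p = 0.340). KCNJ8, the pore of an ATP-sensitive channel of blood vessels, read 67.0, 72.1 and 115 at 1 month and 92.7, 85.9 and 95.6 at 24 months (0.12 ± 0.19, limma adjusted p = 0.691). KCNIP2, a calcium-binding partner of transient outward channels, differed by 0.07 ± 0.22 (95% interval -0.46 to 0.60, limma adjusted p = 0.858), and KCNRG, a protein that holds back potassium channel assembly, by 0.02 ± 0.12 (95% interval -0.25 to 0.30, limma adjusted p = 0.900). In all 4 genes the arrays of the ages overlapped.

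None of the 8 voltage-gated potassium channel genes had a present call on any probe set. These were KCNA4, KCNB2, KCND1, KCNF1, KCNH1, KCNH3, KCNQ1 and KCNQ3, with signals between 11.2 for KCNA4 and 80.8 for KCNB2. The tandem-pore channels KCNK1, KCNK2, KCNK5 and KCNK17, which carry background potassium currents, read between 15.5 and 98.0 on their brightest probe sets without a present call. KCNK2, a stretch-sensitive member, read 51.7 to 75.7. The inward rectifiers KCNJ10, KCNJ15 and KCNJ16 and the calcium-activated KCNN4 were not called present either, KCNN4 with signals of 69.4 to 112. The small beta-type subunits KCNE1 and KCNE2 had 2 and 1 present calls, all at 24 months, and KCNE4 had none.

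The voltage-gated chloride family includes surface channels and chloride-proton exchangers of endosomes and lysosomes. CLCN1, the channel that sets the resting chloride conductance of muscle, was not analysed here. The endosomal exchanger gene CLCN4 read 62.7, 91.6 and 64.3 at 1 month and 106, 129 and 113 at 24 months, without overlap, but its difference of 0.58 ± 0.17 missed the threshold (95% interval 0.19 to 0.97, limma adjusted p = 0.0515). It passed in 5 of the 19 alternatives, among them that without 1-month replicate 2 (0.72, limma adjusted p = 0.0250). CLCN3, a related exchanger, read 133, 140 and 203 at 1 month and 204, 201 and 167 at 24 months (0.26 ± 0.18, limma adjusted p = 0.342). CLCN7, the lysosomal exchanger, differed by 0.23 ± 0.18 on its brightest probe set and by 0.20 ± 0.12 on the other (limma adjusted p = 0.393 and 0.272). CLCN2, a surface channel, had 1 present call and signals of 29.2 to 37.1.

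The CLIC genes encode chloride intracellular channel proteins, which are found both in solution and in membranes, and all 4 on the array were tested. CLIC5, which binds the cortical cytoskeleton, read 43.5, 53.2 and 42.7 at 1 month, with 1 present call, and 63.2, 72.8 and 69.5 at 24 months, with 3. The groups did not overlap, and the difference of 0.44 ± 0.13 missed the threshold (limma adjusted p = 0.0564). CLIC5 passed in 8 of 18 alternatives, among them both forms of the second deposited table (1.13 and 1.10, limma adjusted p = 0.0247 and 0.0377). CLIC2, which can bind ryanodine receptors, gave 0.39 ± 0.17 (limma adjusted p = 0.150).

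CLIC1 read 553, 206 and 247 at 1 month and 191, 197 and 200 at 24 months. All calves lay above all older bulls, and without 1-month replicate 1 the CLIC1 difference shrank from -0.60 to -0.19 (limma adjusted p = 0.241 and 0.344). CLIC4, known from vessels and fibroblasts, had 4 tested probe sets with present calls on every array. The brightest CLIC4 probe set read 630, 555 and 652 at 1 month and 312, 554 and 556 at 24 months (-0.40 ± 0.24, limma adjusted p = 0.263). The others gave -1.09 ± 0.37, -0.61 ± 0.34 and -0.01 ± 0.26, and 0 of the CLIC4 probe sets were called by limma (adjusted p from 0.0837 to 0.984). The sum of 5 endothelial markers, of which VWF and ENG had no present call, was 903 to 1161 at 1 month and 646 to 711 at 24 months (two-sided exact permutation p = 0.1). The part of the vessels in the CLIC4 values was not tested.

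The TRP genes encode cation channels that respond to lipids, stretch, heat or store depletion. Of their 9 genes on the array 0 were tested. TRPC1, TRPC2, TRPC4AP and TRPC5 had 1 or 2 present calls each, and TRPC4AP encodes a partner protein and not a channel. TRPC4, TRPC6, TRPM3, TRPV2 and TRPV4 had none. TRPV2 shows that signal and call differ. Its signals were 155 to 181 at 1 month and 206 to 273 at 24 months, yet its 1-month detection p-values were 0.601 to 0.919. In the calcium channel family, likewise, CACNA1I read 126 to 222 on its brightest probe set without a present call. The remaining calcium channel genes CACNA1B, CACNA1D, CACNA1E, CACNB2 and CACNB4 had no present call on any array on their brightest probe sets, and CACNA1G and CACNG2 had 1 each.

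Of 27 textbook channels of the fibre membrane and triad, 15 have no probe set under the symbol rule and were not analysed here, among them the ATP-sensitive channel gene KCNJ11 and the muscle gamma subunit CACNG1. Of the 12 in the set 7 were tested, and the calls among these were those of SCN4B, CACNA2D1, CACNB1 and CACNG6. KCNJ2, CACNB3 and KCNMA1 were the tested ones without a call. Over all tested genes 11.5% were called higher. CACNA2D1 was tested through its 24-month calls alone, and the list was chosen with earlier results of these data known.

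Genes that work beside the channels in excitation-contraction coupling were taken from a list of 55, of which 29 were on the array and 24 were tested. This list too was chosen with earlier results of these data known, so its shares are descriptive and no independent test. By limma 7 of the 24 rose (29.2%) and 2 fell (8.33%), with a median change of 0.37, against 11.5% higher, 5.88% lower and a median of 0.03 over all tested genes. CHRNE, the adult subunit of the acetylcholine receptor, rose by 2.05 ± 0.19 (adjusted p = 0.00365). STAC3, an adaptor that binds the voltage sensor, read 680, 925 and 914 at 1 month and 1581, 2134 and 1963 at 24 months and rose by 1.16 ± 0.18. SGK1, a kinase that regulates many channels, rose by 1.10 ± 0.29 and BIN1, which shapes the transverse tubules, by 0.96 ± 0.11. PLN, an inhibitor of the calcium pump, rose by 0.95 ± 0.20, HRC, a calcium-binding protein of the reticulum, by 0.90 ± 0.18, and ATP2A2, the slow-fibre calcium pump, by 0.72 ± 0.15. STIM1, the calcium sensor of the reticulum, fell by 0.53 ± 0.11 and MTMR14, a phosphoinositide phosphatase, by 0.43 ± 0.11. For ATP2A1, the fast-fibre pump, the brightest probe set gave 0.25 ± 0.12 and did not pass (limma adjusted p = 0.191). A second ATP2A1 probe set, present on all 6 arrays, read 131, 247 and 364 in the calves and 556, 878 and 615 in the older bulls and was called higher (1.49 ± 0.35, limma adjusted p = 0.0310). RYR1, the release channel, was not analysed here.

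The calls other than that of SCN4B rested on the whole design. CACNA2D1 and CACNG6 lost theirs without 24-month replicate 2, 3 or 4 (limma adjusted p up to 0.0581 and 0.0864), CACNB1 also without 1-month replicate 1 (up to 0.113), and KCNMB1 in every fit with 1 array left out but that without 1-month replicate 3 (up to 0.150). With the actin ratio as a covariate SCN4B alone was called, and the values were 0.57 for CACNA2D1, 0.60 for CACNB1, 0.31 for CACNG6 and 0.23 for KCNMB1 (limma adjusted p from 0.197 to 0.612). Since the actin ratio of the arrays did not overlap between the ages, the lost calls cannot be laid to RNA quality. The direction of these 5 genes was the same in all alternatives.

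**Figure D5:**
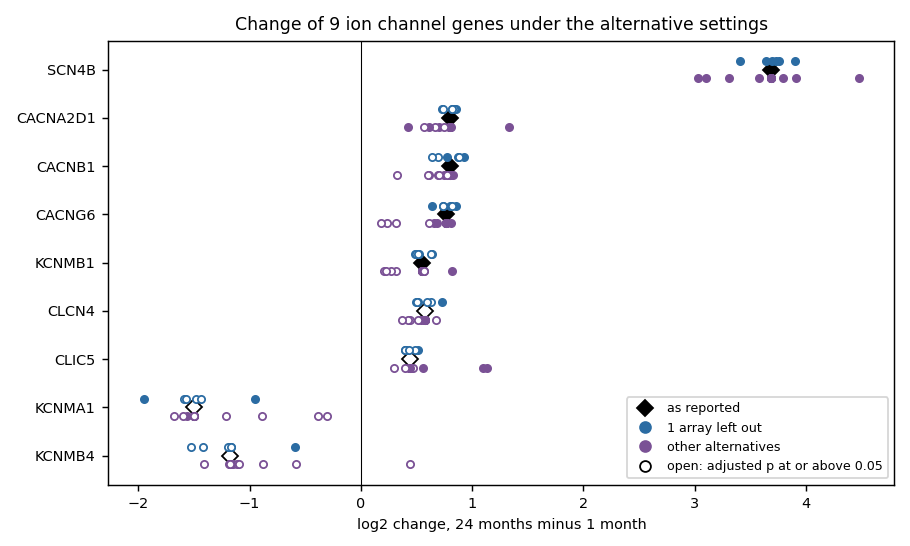
Points show the log2 change from 1 to 24 months of 9 channel genes as reported (diamonds), with 1 array left out (blue) and under the other alternatives (purple), open where the adjusted p was 0.05 or more. SCN4B lies between 3.03 and 4.47 with every point filled, while the smaller differences mix filled and open points and KCNMB4 crosses 0 once.

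The spread between pools also differed by age. On the log2 scale 15 of the 20 tested channel genes had the larger SD at 1 month (75%), as had 83.7% of all tested genes. The median SD of the channel genes was 0.25 at 1 month and 0.13 at 24 months. The 5 genes with the larger SD at 24 months were CACNA1A, CACNB1, CACNB3, KCNIP2 and CLIC4, and in CLIC4 24-month replicate 2 was low.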

How the data were processed

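The deposited table used here, named for the program dChip, holds linear intensity values that the authors had normalized before deposit, with a detection call per array and, for the 1-month arrays, a detection p-value. Both came from steps not given in the sources used here, program version included. Intensity values of the same arrays in another deposited table, called the second table, have an unstated scale and medians of 15.4 to 21.2. Columns were matched by title. Genes were named from the platform annotation; all 59 matched the RefSeq table by identifier, with 0 symbols changed. The log2 medians differed by 0.0308, so no further normalization was applied. Control probe sets were left out. Limma 3.58.1 (lmFit, eBayes) in R 4.3.3 was fitted to log2(intensity + 16) of all 13204 probe sets present on at least 3 of 6 arrays, with age alone in the model and two-sided tests, unpaired since the labels give no pairing. The fit was tested on simulated data. The members and lists were chosen with earlier results of these data known. Named by rule were the called genes, the brightest 5, a textbook list, genes with disagreeing probe sets or present at 1 age only, and called partner genes; others were named after their values were seen. The 19 alternatives covered normalization, offset, filter, table, probe set, actin ratio, variance model, replicate block and leaving out each array. No sequences were analysed here.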

Additional observations from a re-analysis of the deposited data

How the results depend on the processing

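The number of channel genes called higher, 5, became 3 with presence on all 6 arrays, 3 in the second deposited table after quantile normalization and 2 without it, 1 with the actin ratio as a covariate and 1 with the replicate block. It ranged from 1 to 7 with 1 array left out, the 1 being without any of the 24-month arrays. The number called lower, 0, was 1 without the filter on detection calls (KCNK1, which has no present call on that probe set), 1 in the second table after quantile normalization (KCNMA1), and 0 to 2 with 1 array left out. Replicate numbers 2 and 3 occur at both ages, but the labels give no pairing. The deviations of like-numbered arrays from their age means correlated at -0.18 and 0.04, against -0.092 to 0.17 for unlike numbers. These few values cannot decide whether like-numbered arrays share more than a number. The replicate block rests on 1 residual degree of freedom. Calls over all probe sets, 2513, became 1641 and 1169 in the second table with and without quantile normalization, 996 with the actin ratio, 129 with the replicate block, and 689, 586 and 526 without 24-month replicates 2, 3 and 4.

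None of the genes whose difference turned in sign was called as reported. With the actin ratio these were CACNB3 (0.031), CLCN3 (-0.35), CLCN7 (-0.35), CLIC1 (0.48), KCNJ2 (-0.45), KCNJ8 (-0.60), KCNMB4 (0.44) and KCNRG (-0.17). In the second table KCNJ8 (-0.001) and KCNRG (-0.001) turned after quantile normalization, and KCNIP2 (-0.022), KCNJ8 (-0.047) and KCNRG (-0.048) without it. KCNIP2 also turned with the mean of its probe sets (-0.045) and, with KCNJ8 (-0.032) and KCNRG (-0.011), under the replicate block (-0.14). With 1 array left out CACNA1A ranged from -0.083 to 0.14, KCNIP2 from -0.076 to 0.24, KCNJ8 from -0.004 to 0.33 and KCNRG from -0.021 to 0.069. The causes were not tested, and the fit with the actin ratio can hardly separate that ratio from age. Passing over probe sets ending in _x_at or _s_at could not change the 20 values, since no probe set of the channel genes has such an ending.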
